A study of Panax notoginseng with 2 samples.

Results

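Antisense loci are transcribed regions that lie across a gene but on the opposite strand of the DNA. In root RNA of Panax notoginseng, a herb related to ginseng, 749 of 147111 loci carried the Cufflinks class code x, which marks a transcript whose exons overlap a reference gene on the other strand. The members were chosen by this code alone, and no expression value entered the choice. The study sequenced root RNA of field-grown plants in 2 libraries. One library was labelled control. The other was made after treatment with cadmium, a heavy metal toxic to plants, at 5 µM. Each group held 1 library, no genotype, age or length of exposure was given in the sources used here, and no difference below has a replicate check.

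Antisense transcripts are common in plant genomes. Some are known to act on the gene they face, for example by pairing with its RNA or by changing its chromatin, and the long antisense RNAs of the Arabidopsis flowering gene FLC are a well studied case. Others are extended ends of a neighbouring gene, or arise from a promoter on the other strand. In RNA sequencing without strand information, an assembler such as Cufflinks takes the strand of a spliced transcript from the letters at its splice sites, while reads within an exon can come from either strand. The identifiers in the files are paired with no gene name or function, so partner genes are described by position and class, and the root label could not be checked against marker genes. The genome sequence was not used here, so no sequence of these loci is shown.

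The position given for a locus was an interval that it shared with every locus overlapping it on either strand. The 147111 loci lay in 142706 distinct intervals, none of which overlapped another. All 749 antisense loci had exactly the same interval as a locus on the opposite strand. The position therefore shows where a pair lies, not how far each of its members extends. Only 1 exon per locus was listed besides, always exon 1, and exon 1 was the leftmost one in all 224 spliced minus-strand transcripts of a partial exon list. Both strands held antisense loci, with 352 on the plus and 397 on the minus strand. In none of them did the listed exon fill the shared interval, which does not show whether an antisense locus has further exons. Whether the libraries kept strand information is not given in the sources used here and was not tested. A strand was given for only 84 of 4744 intergenic loci whose listed exon filled the interval. Reads in exons shared by both loci of a pair may thus have been divided between them, which was not tested either.

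Every antisense locus had a partner, taken as the opposite-strand locus in the same interval. Of the 749, 645 had a single opposite-strand locus and 104 had between 2 and 6. Overlap lengths were tied in those cases, so the locus naming the same reference gene was taken, then the one with the nearest listed exon. The pairs held 739 distinct partners, and in 710 pairs both loci named the same reference gene. Partners comprised 376 loci with a splice form not in the reference (class code j, here called new splice form), 298 of reference structure (class code =), 69 with another exon overlap (class code o) and 6 intergenic loci (class code u). The 749 loci fell in 737 intervals on 705 scaffolds and contigs, so antisense loci were spread over the genome rather than gathered on a few scaffolds.

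The intervals were gene-sized. They ran from 450 to 113105 bases with a median of 5981, close to the 6247 bases of loci with a new splice form and longer than the 2362 bases of stranded intergenic loci. The listed exon of an antisense locus had a median of 445 bases, against 312 in the partners, and ran from 1 to 9475 bases. It overlapped the listed exon of the partner in 258 pairs. In 278 pairs the antisense exon began further left than the exon of the partner, in 417 further right and in 54 at the same base. A leftmost exon is the 5′ end of a plus-strand transcript and the 3′ end of a minus-strand one. Of the 278 antisense loci reaching further left, 159 were on the plus strand, where this end lies beyond the 3′ end of the listed partner exon, and 119 were on the minus strand, where it lies upstream of the 5′ end.

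Antisense loci were weakly expressed compared with the genes they face. Levels are given in FPKM, a fragment count divided by transcript length and library size, which allows loci of different length to be compared. The median antisense level was 1.15 FPKM without cadmium and 2.16 with it. The median of their partners was 7.52 and 7.86 FPKM. In the control library 398 antisense loci reached 1 FPKM, 114 reached 10 and 20 reached 100. In the cadmium library 528 reached 1 FPKM, 132 reached 10 and 17 reached 100. More antisense loci were thus detected at 1 FPKM in cadmium, while the number at high levels was similar. Among partners 592 reached 1 FPKM without cadmium and 575 with it. In root tissue, more cells of a type and more RNA per cell cannot be told apart.

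A locus was compared when it reached 1 FPKM in at least 1 library. This held for 587 of the 749 antisense loci, and the other 162 stayed below 1 FPKM in both. Of the 587, 339 reached 1 FPKM in both libraries, 189 in cadmium only and 59 in the control only. Over all 33904 compared loci, 3781 reached it in cadmium only and 6487 in the control only. Stranded intergenic loci leaned as antisense loci did, with 580 of 2565 in cadmium only and 190 in the control only. The ratio used was log2((cadmium FPKM + 1)/(control FPKM + 1)), which understates the change of low loci. Loci past 2-fold on this scale are called higher or lower. Levels of compared antisense loci ranked less alike in the 2 libraries than those of the partners and of 2 other classes. Spearman's rho across loci was 0.31 for 587 antisense loci, 0.47 for 2565 stranded intergenic loci, 0.61 for 634 partners and 0.71 for 14862 loci with a new splice form. These correlations describe loci of the same 2 libraries, and classes of lower expression also have fewer fragments per locus.

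**Figure D1:**
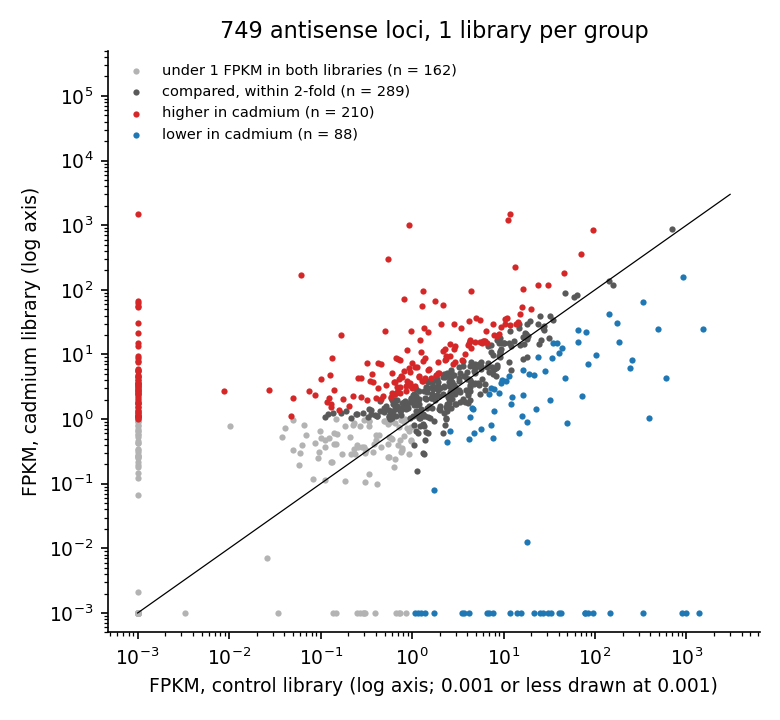
FPKM of each antisense locus in the control (x axis) and the cadmium library (y axis), both on log axes, with values of 0.001 or less drawn at 0.001. The 210 loci higher in cadmium lie above the line of equal FPKM and the 88 lower ones below it, and both edges hold loci at or near 0 in 1 library.

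More antisense loci were higher than lower in the cadmium library. Of the 587, 210 were higher, 88 were lower and 289 were neither. That is 35.8% higher against a background of 20.6% over all 33904 compared loci, and 15.0% lower against a background of 28.6%. The median log2 ratio was 0.55 with quartiles of -0.34 and 1.34, while over all compared loci it was -0.07. Changes of at least 4-fold were seen in 77 higher antisense loci (13.1%, background 7.86%) and in 53 lower ones (9.03%, background 14.1%).

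Stranded intergenic loci had nearly the same balance. Of 2565 such loci, 36.0% were higher and 13.1% lower, with a median of 0.59. Loci with a new splice form were closer to even, 19.3% being higher and 14.4% lower (median 0.14). Loci of reference structure were mostly lower (54.5%, against 13.4% higher), and their median was -1.12. Antisense loci thus resembled stranded intergenic loci in these shares. Cufflinks gives codes such as x, j and u to assembled transcripts, and assembly needs reads, which ties class to expression.

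**Figure D2:**
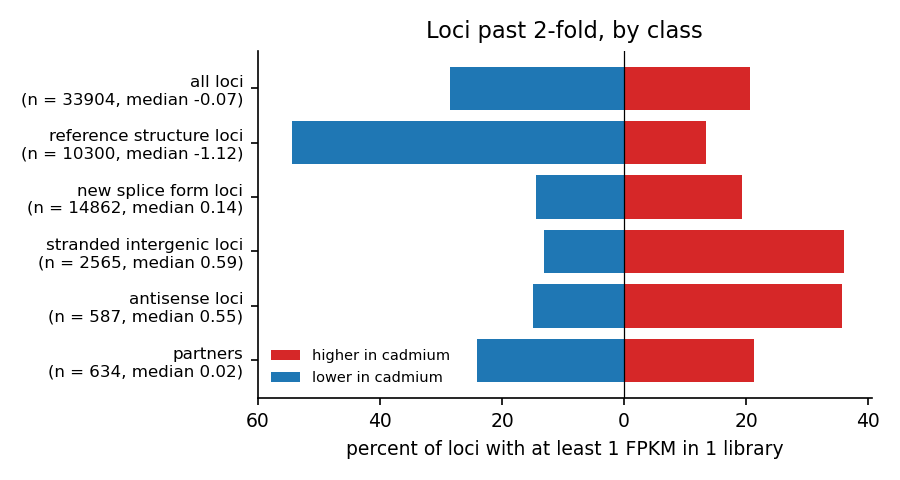
Percent of compared loci higher (right) and lower (left) in the cadmium library past 2-fold, for all loci, 4 classes and the partners of the antisense loci. Antisense and stranded intergenic loci have similar bars, with 35.8% and 36.0% higher, and the partners have 21.3% higher and 24.1% lower.

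The lean towards cadmium, more loci higher than lower, was found among weakly and moderately expressed antisense loci, not among the most abundant. With a mean of 1 to 2 FPKM, 43 of 129 were higher (33.3%, all loci 20.5%) and 4 lower (3.10%, all loci 33.3%). Their median log2 ratio was 0.57. Of stranded intergenic loci at this level, 41.2% were higher and 5.12% lower. From 2 to 5 FPKM, 61 of 167 antisense loci were higher (36.5%, all loci 21.4%) and 14 lower (8.38%, all loci 30.6%). Their median was 0.57. The counts were closer from 5 to 10 FPKM, with 22 higher (31.4%, all loci 19.3%) and 17 lower (24.3%, all loci 24.5%). They were also closer from 20 to 50 FPKM, with 19 higher (38.8%, all loci 19.3%) and 17 lower (34.7%, all loci 23.2%). From 10 to 20 FPKM, 27 of 64 were higher (42.2%, all loci 17.6%) and 12 lower (18.8%, all loci 23.0%). Their median was 0.78. Above 50 FPKM, 13 of 37 were higher (35.1%, all loci 26.7%) and 18 lower (48.6%, all loci 30.4%), with a median of -0.43. The share higher was thus near the 35.8% of all compared antisense loci, while the share lower exceeded their 15.0%. Stranded intergenic loci above 50 FPKM had a median of 0.40 (158 loci) and all loci one of -0.03 (4180 loci). Whether these medians differ could not be tested with 1 library per group.

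**Figure D3:**
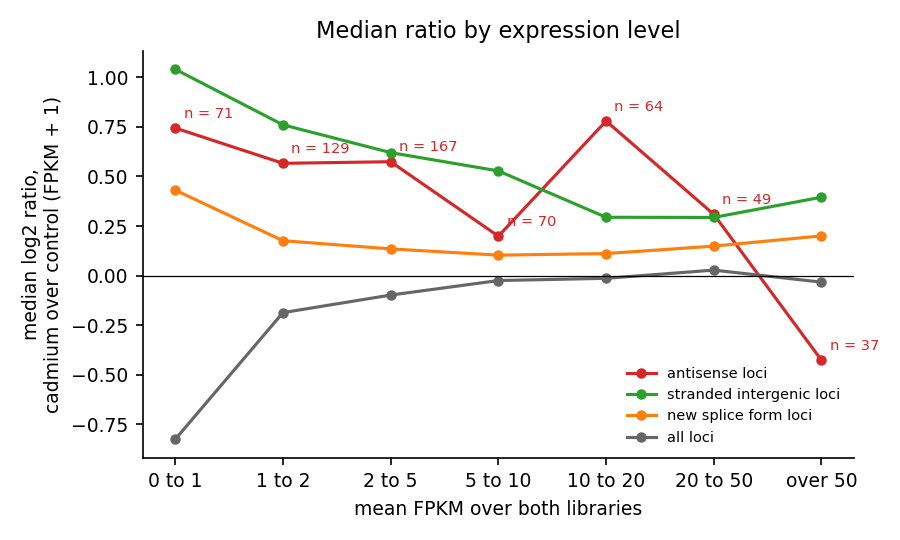
Median log2 ratio of cadmium over control (y axis) by mean FPKM over both libraries (x axis) for antisense loci, stranded intergenic loci, loci with a new splice form and all loci, with the number of antisense loci beside each point. The antisense median lies between 0.20 and 0.78 up to 50 FPKM and at -0.43 above it.

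The listed exon and the level moved together. The 53 antisense loci whose listed first exon had 50 bases or fewer made up 7.08% of the class but 11 of its 37 members above a mean of 50 FPKM. Of the 47 compared, 15 were higher and 36.2% lower. Their median log2 ratio was -0.0036. Those with a listed exon of over 1000 bases were weakly expressed and rarely lower. Of 137 compared, 44 were higher and 4.38% lower, with a median of 0.68. Their median level was 1.07 FPKM without cadmium and 2.09 with it. Among loci with a new splice form the median ratio hardly moved with exon length, from 0.12 at 50 bases or fewer to 0.11 over 1000 bases. Their share lower in cadmium did fall, from 21.8% to 13.1%. Stranded intergenic loci also showed part of the pattern. Those with 50 bases or fewer were 6.39% of that class but 31 of its 158 loci above 50 FPKM, and the share lower in cadmium was 21.8% among them and 8.26% over 1000 bases. Their median ratios were similar, 0.62 and 0.60. Without the antisense loci of 50 bases or fewer, a setting chosen after seeing the data, 195 of 540 antisense loci were higher and 71 lower, with a median of 0.60. All loci were not counted under this setting.

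The lean was present on both strands and at every interval length. The median log2 ratio was 0.63 for 271 compared loci on the plus strand and 0.51 for 316 on the minus strand. It was 0.66 for 243 loci whose listed exon began left of the partner's exon and 0.42 for 307 that began right of it. Intervals under 3000 bases gave 0.70 (110 loci) and those of 12000 bases or more gave 0.39 (142 loci). Antisense loci alone on their strand in the interval had a median of 0.61 (505 loci), and those sharing it with a same-strand locus 0.37 (82 loci). All of these medians were above the -0.07 of all compared loci.

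Near-zero values were frequent among antisense loci, while listed zeros were less frequent than over all loci. In the control library 64 of the 749 were listed at 0 and 57 had a value above 0 but under 0.001 FPKM, the lowest being 2.87e-198. In the cadmium library the numbers were 27 and 48. Over all 147111 loci, 105199 were listed at 0 in the control and 112135 in cadmium. Of all loci, 119648 had reference structure, with a median of 0 FPKM in both libraries. Antisense loci were assembled from reads, so fewer zeros among them than over all loci follow from their class and are not a finding. Of the 739 partners, 59 and 91 were listed at 0. Such near-zero values were rare elsewhere. Over all 147111 loci there were 99 in the control and 95 in cadmium, so antisense loci held most of them in the control and about as many as all other loci together in cadmium. The other 4788 loci in intervals with loci on both strands held 42 and 47. Every near-zero value thus lay in an interval with loci on both strands. Such intervals without an antisense locus held 35 and 38 among 3758 loci. Whether a listed 0 or a near-zero value is an absence of fragments or a product of dividing reads between overlapping loci was not tested.

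Among the compared antisense loci, 60 were at 0 or under 0.001 FPKM in the control (10.2%, background 4.05%) and 30 in the cadmium library (5.11%, background 12.0%). The order was thus the opposite of that over all loci, where such values were more frequent in cadmium. It was not particular to antisense loci. Compared stranded intergenic loci had 8.30% in the control and 3.98% in cadmium, and loci with a new splice form 0.98% and 0.77%. Compared partners had the order of all loci, with 1.10% and 3.79%. Each FPKM corresponded to 19.8 fragments per kilobase of the control library and 11.9 of the cadmium one, estimated from unspliced reference loci. The cadmium library, in which fewer antisense loci were at 0, was thus the one with fewer fragments per FPKM. The full length of the antisense loci is not known, so the number of fragments behind their values is unknown.

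The partners as a group did not share the lean. Of 634 distinct partners compared, 135 were higher (21.3%), 153 were lower (24.1%) and 346 were neither, with a median log2 ratio of 0.02. Both shares are near the background of 20.6% and 28.6%. Partners of reference structure were more often lower, with 77 of 201 lower, 40 higher and a median of -0.34. This median is less negative than the -1.12 of all reference-structure loci. Partners with a new splice form had 79 of 363 higher, 63 lower and a median of 0.10, near the 0.14 of their class. The antisense loci facing these kinds of partner had similar medians, 0.63 for 250 loci facing reference structure and 0.51 for 282 facing a new splice form.

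In 512 pairs both loci were compared. The antisense locus had a median log2 ratio of 0.51 and the partner one of -0.03, and the median difference within pairs was 0.30, with quartiles of -0.59 and 1.43. The antisense ratio exceeded that of the partner by 1 or more in 167 pairs, fell short by 1 or more in 86 and lay within 1 in 259. Among the 99 pairs in which both loci had a mean of at least 10 FPKM, a level chosen after seeing the data, this imbalance was absent. There 30 pairs differed by 1 or more in one direction and 29 in the other, with a median difference of -0.05. The excess for antisense loci was thus found in pairs with a weakly expressed member.

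Antisense loci and partners more often changed in the same than in opposite directions. Both passed 2-fold in 139 pairs, of which 101 went the same way and 38 opposite ways. In 63 pairs both were higher, in 38 both lower, in 28 the antisense locus was higher and the partner lower, and in 10 the reverse. Of 63 antisense loci higher by 4-fold or more, the partner was higher in 32 and lower in 10. Of 50 lower by 4-fold or more, the partner was lower in 27 and higher in 4. Spearman's rho of the ratios across the 512 pairs was 0.38, a description of loci in the same libraries whose reads may be divided between them.

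**Figure D4:**
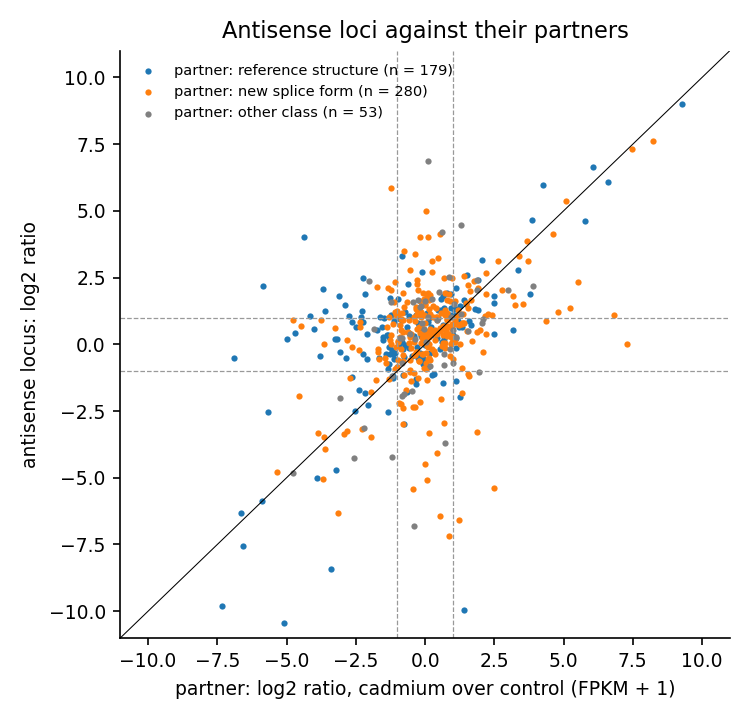
Log2 ratio of each antisense locus (y axis) against that of its partner (x axis) in the 512 pairs with both loci compared, coloured by the class of the partner, with dashed lines at 2-fold and a solid line at equal ratios. The 101 pairs changed the same way lie in the lower left and upper right corners and the 38 changed in opposite ways in the other corners.

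Opposite-strand pairs without an antisense locus were less alike by these counts. Among intervals with a single locus on each strand and no other, 382 pairs with an antisense locus were compared, of which 80 changed the same way and 30 opposite ways (27.3% of those past 2-fold in both). In 754 such pairs without an antisense locus, 96 changed the same way and 55 opposite ways (36.4%). The ratios within a pair differed at least 2-fold in 50.3% of the first and 59.2% of the second. The median interval was 5183 bases in the first and 9467 in the second, and whether the kinds of pair differ was not tested.

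Most antisense loci stayed below their partner in both libraries, but more stood above it in cadmium. Of all 749, 175 had the higher FPKM of the pair without cadmium and 233 with it. In 130 pairs the antisense locus was above the partner in both libraries and in 457 below it in both. In 90 pairs it was below in the control and above in cadmium, and in 43 the order was the reverse. In 29 pairs both loci had equal values in at least 1 library. Shares were taken only in the 512 pairs with both loci compared, 508 of which had a share in the control. There the antisense share of the summed FPKM of a pair had a median of 16.9% in the control and 24.2% in cadmium. It was larger in cadmium in 329 pairs and larger in the control in 179.

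This shift in share was largest where the partner had reference structure. In 179 such pairs the median antisense share was 23.0% in the control and 40.3% in cadmium, and the antisense locus stood above its partner in 43 and 74 pairs. In 280 pairs with a new splice form it was 11.5% and 17.6%, with 53 and 55 pairs above. In 51 pairs with another exon overlap it was 21.4% and 19.0%, with 9 and 10 above. The larger shift thus went with the partners whose own median was lowest. The difference in shift between the classes was not tested.

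**Figure D5:**
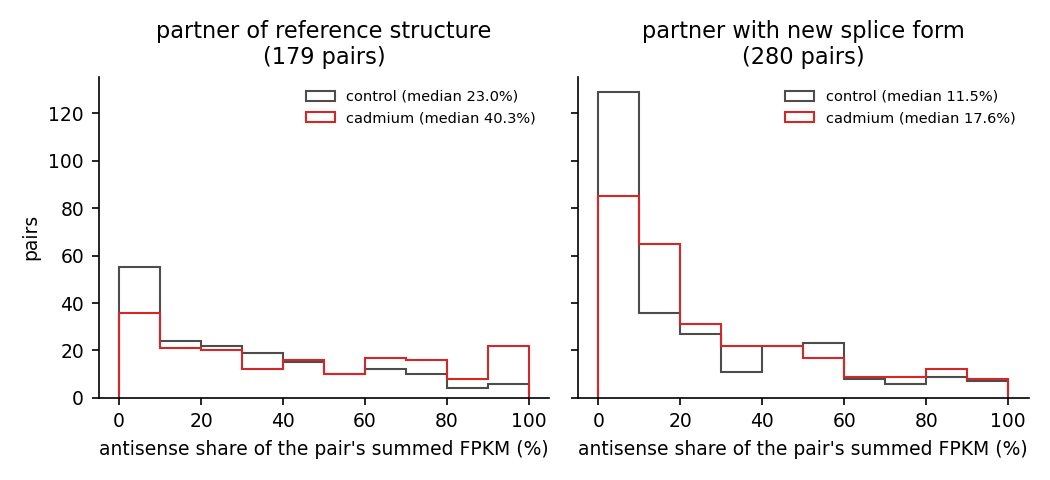
Number of pairs (y axis) by the antisense share of the pair's summed FPKM in percent (x axis), in the control and the cadmium library, for partners of reference structure (left) and with a new splice form (right). Fewer pairs lie under 10% in cadmium than in the control in both panels, and for reference-structure partners the median moves from 23.0% to 40.3%.

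Among antisense loci that reached 1 FPKM in both libraries, the strongest single increases were mostly shared with the partner. Among 141 antisense loci that reached 1 FPKM in each library and 10 in 1 of them, the partner was also higher in 5 of the 8 with the highest ratio. XLOC_122955 lay on the plus strand of scaffold5661 from 62541 to 69561. It stood at 11.1 FPKM without cadmium and 1222 with it, 110-fold higher, and its reference-structure partner at 41.5 and 2862 FPKM. On scaffold19730 from 19977 to 22555, the antisense locus stood at 1.31 and 95.6 FPKM and its partner at 23.6 and 843. In both pairs the 2 loci were higher in cadmium and the partner was the more abundant one in each library.

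In 3 further pairs both loci were higher, with smaller ratios of the antisense locus. On scaffold36021 from 35228 to 39195, the antisense locus stood at 1.29 FPKM without cadmium and 56.4 with it, and its partner at 4.09 and 72.1. On scaffold23613 from 32016 to 33716, the antisense locus stood at 1.76 and 66.3 FPKM and its partner at 10.2 and 617. On scaffold23264 from 166127 to 167853, the values were 4.41 and 94.5 FPKM for the antisense locus and 4.39 and 131 for the partner. In the last pair both loci had nearly the same control level and were higher by a similar factor, 21.4-fold for the antisense locus and 29.8-fold for the partner.

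In the other 3 of these 8 the partner was not higher 2-fold. XLOC_139765, on the minus strand of scaffold859 from 10589 to 11181, stood at 11.8 FPKM without cadmium and 1494 with it, 126-fold higher, while its partner stood at 23.4 and 25.1. The listed first exon of this locus had 30 bases and that of its partner 4. On scaffold17224 from 32642 to 40096, the antisense locus stood at 2.16 and 58.0 FPKM and its partner at 1.87 and 3.33. This partner was 1 of 2 opposite-strand loci in the interval. On scaffold16365 from 89388 to 94366, the antisense locus stood at 13.2 and 229 FPKM, and its partner at 19.7 FPKM in the control library but listed at 0 in cadmium. Antisense loci below 1 FPKM in the control lay outside this ranking of 8, and some increases among them were larger. On scaffold18597 from 56655 to 58803, such a locus stood at 0.55 and 304 FPKM, with its partner at 6.87 and 2354. On scaffold1903 from 45910 to 65447, another stood at 0 and 1507 FPKM, with its partner at 0.55 and 0.52.

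Among the same 141 antisense loci, the strongest decreases were also shared with the partner in 5 of 8 cases. Of these 8, 6 had a listed first exon of 50 bases or fewer. XLOC_092321, on the plus strand of scaffold28923 from 5679 to 6497, stood at 387 FPKM without cadmium and 1.04 with it, and its reference-structure partner at 2160 and 21.7. On scaffold22637 from 8512 to 12959, the antisense locus stood at 1501 and 24.6 FPKM, with its partner at 20622 and 350. The antisense share of the pair was 6.78% in the control and 6.57% in cadmium, so both loci of this very abundant pair were lower by nearly the same factor. On scaffold9203 from 6600 to 8877, the antisense locus stood at 239 and 6.20 FPKM and its partner at 223 and 16.4.

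Other decreases differed in how the partner behaved. On scaffold5209 from 39316 to 46810, the antisense locus stood at 492 FPKM without cadmium and 24.6 with it and its partner at 111 and 18.1. On scaffold17350 from 27291 to 42077, the plus-strand antisense locus stood at 181 and 15.4 FPKM and its partner, 1 of 2 opposite-strand loci, at 240 and 61.5. XLOC_083199, on the minus strand of scaffold25532 from 5819 to 6382, stood at 601 and 4.38 FPKM, while its partner stayed abundant at 1602 and 1203. In 2 cases the partner was below 1 FPKM in both libraries. The antisense locus on scaffold8681 from 216931 to 233284 stood at 255 and 8.34 FPKM with a partner listed at 0 in both, and that on contig C4896199 from 849 to 10584 stood at 72.1 and 2.24 FPKM. Their listed first exons had 2 and 7 bases. Antisense loci below 1 FPKM in cadmium lay outside this ranking of 8, and some decreases among them were larger. On scaffold2325 from 27783 to 41241, such a locus stood at 84.9 and 0 FPKM, with its partner at 79.6 and 117. On scaffold19000 from 86879 to 87758, another stood at 78.0 and 0 FPKM, with its partner at 266 and 1.68.

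The 4 antisense loci on scaffold5661 were the most on any scaffold or contig, and 3 neighbouring ones were higher in cadmium, as were their partners. These were looked at together after their values had been seen. From 54253 to 58230 the antisense locus was listed at 0 in the control and stood at 61.7 FPKM in cadmium, and its partner at 0.043 and 19.1. From 59835 to 61582 the antisense locus stood at 0.93 and 1005 FPKM and its partner at 3.14 and 2582. The third is the pair from 62541 to 69561 given above. In each of the 3 intervals the antisense locus was on the plus strand and the partner, of reference structure, on the minus strand.

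The nearest antisense locus to the left and the next compared locus to the right were not higher. The antisense locus from 8193 to 52589 stood at 4.22 FPKM without cadmium and 4.14 with it, with its partner at 2.45 and 0.77. A locus with a new splice form from 73769 to 79018 stood at 8.11 and 8.05 FPKM. A further antisense locus listed at 0 in the control, on scaffold17497 from 17730 to 23259, stood at 66.5 FPKM in cadmium. It faced 3 loci in that interval. The one taken as its partner stood at 0.42 and 136 FPKM, another of reference structure at 6.54 and 116, and the third, with another exon overlap, was lower in cadmium at 6.74 and 0.98. To the left of the interval a reference-structure locus from 16449 to 17237 stood at 8.02 and 3300 FPKM.

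Pairs in which the loci separated were of several kinds. The difference of log2 ratios was ranked among 94 pairs with both loci at 1 FPKM or more in both libraries and at 10 in 1. On contig C4949617 from 19259 to 26553 the antisense locus hardly differed, at 27.8 FPKM without cadmium and 27.9 with it, while its partner, with a new splice form, stood at 12.2 and 2044. On scaffold4811 from 18211 to 20262 the antisense locus stood at 11.3 and 14.9 FPKM and its partner at 11.1 and 67.5. In both pairs the antisense locus had the higher level in the control and the partner in cadmium.

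The order also turned round in the other direction. On contig C4868849 from 1 to 3034, the antisense locus stood at 9.70 FPKM without cadmium and 15.2 with it while its partner stood at 101 and 9.84. The antisense share of the pair was 8.75% and then 60.8%. On scaffold8468 from 1684 to 18440 the antisense locus stood at 17.5 and 20.5 FPKM and its partner at 63.8 and 6.17. On scaffold13760 from 11810 to 20821 both loci were lower in cadmium. The antisense locus stood at 911 and 157 FPKM and the partner, 1 of 2 opposite-strand loci, at 7303 and 143. On scaffold5796 from 5162 to 8516 the antisense locus stood at 3.79 and 10.3 FPKM and its partner at 12.2 and 1.76. In these 4 pairs the antisense locus was the less abundant one in the control and the more abundant one in cadmium.

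Opposite changes past 2-fold in pairs of this level included scaffold31972 from 29069 to 39997. There the antisense locus stood at 22.4 FPKM without cadmium and 1.42 with it, and its partner at 5.17 and 21.9. On scaffold29255 from 110384 to 136856 the antisense locus stood at 12.3 and 2.204 FPKM, with its partner at 25.9 and 39.4, a change of less than 2-fold. This partner was 1 of 2 opposite-strand loci. Among the 94 pairs, the largest difference in favour of the antisense locus was that of XLOC_139765 and the largest against it that of the locus on contig C4949617.

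The most abundant antisense locus by mean hardly differed between the libraries. On scaffold6723 from 17149 to 21401 it stood at 701 FPKM without cadmium and 878 with it, and its partner at 1189 and 2077. Another 2 of the 5 highest were listed at 0 in 1 library. The antisense locus on scaffold1903 from 45910 to 65447 was listed at 0 in the control and stood at 1507 FPKM in cadmium, while its partner stood at 0.55 and 0.52. The antisense locus on scaffold18765 from 136434 to 137028 stood at 1386 FPKM without cadmium and was listed at 0 with it, with its partner at 116 and 2.40. No fold is given against a listed 0.

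Among antisense loci listed at 0 in cadmium, those with the next highest control values were on scaffold8710 and scaffold25830. The first, from 74879 to 83060, had 989 FPKM in the control library, and its partner 0.9995 FPKM there and 4.30 in cadmium. The second, from 112150 to 112599, had 337 FPKM in the control library, and its partner 135 FPKM there and 11.9 in cadmium. Their listed first exons had 72 and 19 bases. In 1 of these pairs the partner was lower in cadmium and in the other it was higher.

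In 12 intervals there were 2 antisense loci each, and neighbours within an interval often differed. In 7 of the 12 both were compared, and in 5 of these the log2 ratios differed by 1 or more. On scaffold28907 from 98343 to 101387, 1 minus-strand antisense locus stood at 102 FPKM without cadmium and 9.92 with it, while the next stood at 9.18 and 10.5. On scaffold18517 from 274511 to 290314, 1 stood at 5.56 and 34.2 FPKM and the other at 1.98 and 1.41. On scaffold4947 from 7241 to 17976 both were higher in cadmium, at 0.998 and 7.25 FPKM and at 1.25 and 11.1.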

How the data were processed

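The authors deposited 1 FPKM value per locus and library, per the file headers. The submitters' processing notes name TopHat2 2.0.13 along with Cufflinks 2.2.1 and its tool Cuffnorm 2.2.1 but give no settings. The genome build is not given in the sources used here, nor are strandedness and read numbers. Class codes and 1 exon per locus came from a second table, and a partial exon list served only to see how exons are numbered. Positions are 1-based on scaffolds and contigs as the files name them. Samples were grouped by the labelled treatment. With 1 library per group no test was possible, so counts by size and medians are given beside those of all compared loci. The pseudocount was 1 FPKM and the minimum overlap of partners 1 base. The order in which tied partners were taken was set after the files had been seen. Fragments behind 1 FPKM were estimated from the step between low values of unspliced reference loci of 500 bases or more. These came out whole within 0.05 for 99.8% in the control and 100% in cadmium, and any scaling between libraries in the authors' software is part of the estimate. Calculations were tested on simulated data drawn from well expressed loci, with no noise added. This checks the arithmetic and not the calls on weakly expressed loci.

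Named loci were the 8 highest and 8 lowest ratios, the 5 highest means, the 5 highest and 5 lowest differences within pairs, and the 3 highest members at 0 in either library. Members and rules were chosen with earlier results of these data known. Calculations ran in Python 3.11.15 with pandas 2.3.3, numpy 2.4.6 and scipy 1.17.1, and figures in matplotlib 3.10.9.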

Additional observations from a re-analysis of the deposited data

How the results depend on the processing

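No paired analysis was possible because there was a single library for each treatment, and none could be left out. Medians were taken as moved when outside the main median's 95% binomial interval, and counts when beyond 1.5 times. This interval was taken across loci or pairs of the same libraries and does not measure the spread between libraries. The cause of the moves was not tested unless fewer loci or pairs entered. With a pseudocount of 0.1 the antisense median was 0.82, the median difference within pairs 0.59 and the opposite pairs 58. With 5 they were 0.24, 0.14 and 6, with 79 higher and 62 lower antisense loci. Without a filter the antisense median was 0.38. At 5 FPKM, where fewer loci enter, 111 were higher, 72 lower and 12 pairs opposite. Equal upper quartiles, a shift of cadmium by 0.16 on the log2 scale, gave an antisense median of 0.68 and a partner median of 0.17. At 4-fold there were 77 higher (13.1%, all compared loci 7.86%), 53 lower (9.03%, all compared loci 14.1%) and 6 opposite pairs. For the other settings in this section all loci were not counted, so those counts have no background beside them. Whether the lean differs from the background under those settings is thus not known. In loci above 0 in both libraries 25 pairs were opposite. In pairs with both loci compared, 105 antisense loci stood above their partner in the control and 139 in cadmium.

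The next settings were chosen after seeing the data. In loci at 0.001 FPKM or more in both libraries, 58 were lower and 16 pairs opposite. At a mean of 10 FPKM, 59 were higher, 47 lower, the antisense median was 0.37 and the difference within pairs reversed to -0.048. Another 64 values stayed within their limits. For named loci 28 log2 ratios moved by over 0.5, all with another pseudocount, 96 did not and none reversed.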
